A study of Mus musculus with 100 samples.

Results

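Extraembryonic endoderm cultures at day 5 of differentiation were compared between KI and flox cells by RNA sequencing. The comparison holds 4 of the 100 samples of the series, the RNA libraries whose titles carry D5XEN: flox replicates 1 and 2 and the KI clones 27 and 48. Mouse embryonic stem cells kept in medium with LIF and inhibitors of MEK and GSK3 were plated on gelatin and grown for 5 days in 15% serum with activin A at 10 ng/mL and retinoic acid at 0.1 µM. All 4 cultures, controls included, were labelled homozygous null for Mll3 (Kmt2c). They differed in Mll4 (Kmt2d), which was Mll4flox/flox in the flox cells and Mll4KI/KI in the KI cells. What KI stands for is not written in the labels; the title names the methyltransferase activity of both proteins as the subject. The numbers 27 and 48 in the titles are taken here as those of 2 KI clones, with 1 library each, so every KI value rests on these 2 clones. The labels do not say that the flox replicates came from separate cultures, and p-values then measure only the spread between these samples, which may be technical.

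Extraembryonic endoderm is the lineage that surrounds the early embryo and feeds and patterns it. It begins as primitive endoderm under FGF signalling and GATA transcription factors, and then divides into visceral endoderm, an absorbing epithelium that takes up maternal proteins and secretes apolipoproteins and carrier proteins, and parietal endoderm, which lays down a thick basement membrane of laminin and type IV collagen. Retinoic acid and activin A drive stem cells towards this lineage in culture. MLL3 and MLL4 methylate histone H3 at lysine 4, chiefly at enhancers, in a complex with UTX (Kdm6a), PTIP (Paxip1) and NCOA6.

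The 4 libraries held 20649047 and 19575836 gene-level reads in flox and 21320238 and 19800909 in KI, so that 3 reads, the most that a count of 0 allows, equal 0.14 to 0.16 CPM. Levels are CPM, the reads of a gene relative to the total of its library, scaled by TMM factors and given in the order flox replicate 1, flox replicate 2, KI27, KI48. Kmt2d was read at 323 and 307 CPM in flox and 272 and 278 CPM in KI, and Kmt2c at 34.3 and 30.0 CPM in flox and 32.2 and 42.8 CPM in KI, with a call for Kmt2c only without KI27 (0.41, edgeR adjusted p = 0.0201). Both transcripts were present in every library, and the tables hold 1 value per transcript, which shows neither a lost exon nor a changed base, and the genotype labels remain unchecked by RNA level. The label of the culture was set beside its markers, and Gata6, Gata4, Sox17, Dab2, Lamb1 and Col4a1 were all above their stem cell level in flox. These are chosen examples: of 93 genes in 4 endoderm lists, 68 were at least 2-fold above stem cells in flox. On the list of secreted proteins 11 of 26 were. Alb, a liver product on that same list, had at most 2 reads in any of the 4 libraries. In a bulk culture, fewer cells of a type and less RNA per cell cannot be told apart.

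In what follows a value in brackets after a gene is its fitted log2 fold change, KI against flox, with its standard error (SE). Of 15532 genes tested with edgeR's quasi-likelihood test, 35.5% were called, which here means a Benjamini-Hochberg adjusted p under 0.05. Called genes were 18.1% higher and 17.4% lower in KI, and those that also changed at least 2-fold were 6.26% higher and 4.74% lower. The extremes lay on both sides, with 183 genes at least 8-fold lower and 167 at least 8-fold higher among those past 2-fold. The lower genes held 4.05% and 4.01% of the reads in flox against 1.19% and 1.29% in KI. The higher genes held 1.24% and 1.24% in flox against 3.53% and 3.30% in KI. Without flox replicate 1 the number called was 3641, without flox replicate 2 it was 3651, without KI27 4444 and without KI48 4967, against 5520 with all libraries. With 2 libraries against 2, groups that do not overlap were common (69.5% of the genes tested), so non-overlap alone sets a gene little apart.

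**Figure D1:**
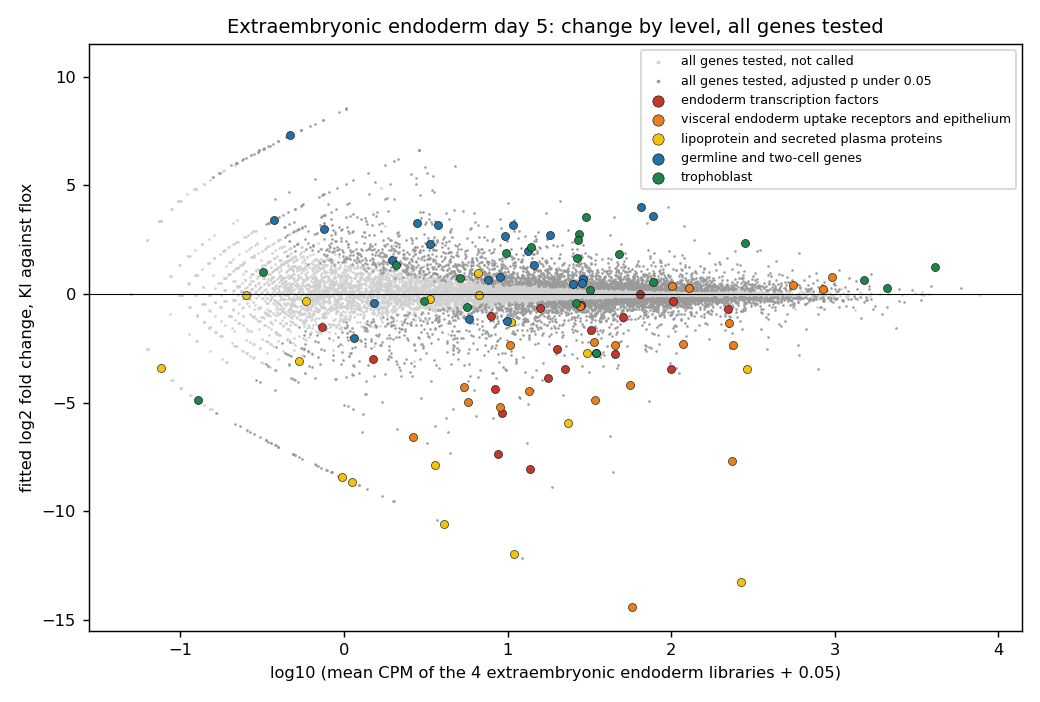
Fitted log2 fold change of KI against flox (vertical axis) against the mean level of the 4 libraries (horizontal axis, log10 of CPM plus 0.05) for the 15532 genes tested, with members of 5 gene lists in colour and called genes in darker grey. Endoderm factors, uptake genes and secreted proteins lie mostly below 0, with Apob among the lowest, and germline and trophoblast genes mostly above it.

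The members of 23 gene lists were read against these shares. Lists of endoderm genes were mostly lower in KI and lists of germline, interferon-stimulated, Hox and trophoblast genes mostly higher. The median log2 fold change over all genes tested was 0.0005, against -2.63 for endoderm transcription factors, -2.35 for visceral endoderm uptake genes and -3.41 for lipoprotein and secreted plasma proteins. At the other end were 1.98 for germline genes, 1.38 for interferon-stimulated genes and 1.00 for trophoblast genes. Retinoic acid pathway genes (-0.01) had a median near that of all genes. That of neural genes was 0.02 but ran from -0.22 without KI48 to 0.35 without flox replicate 2.

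**Figure D2:**
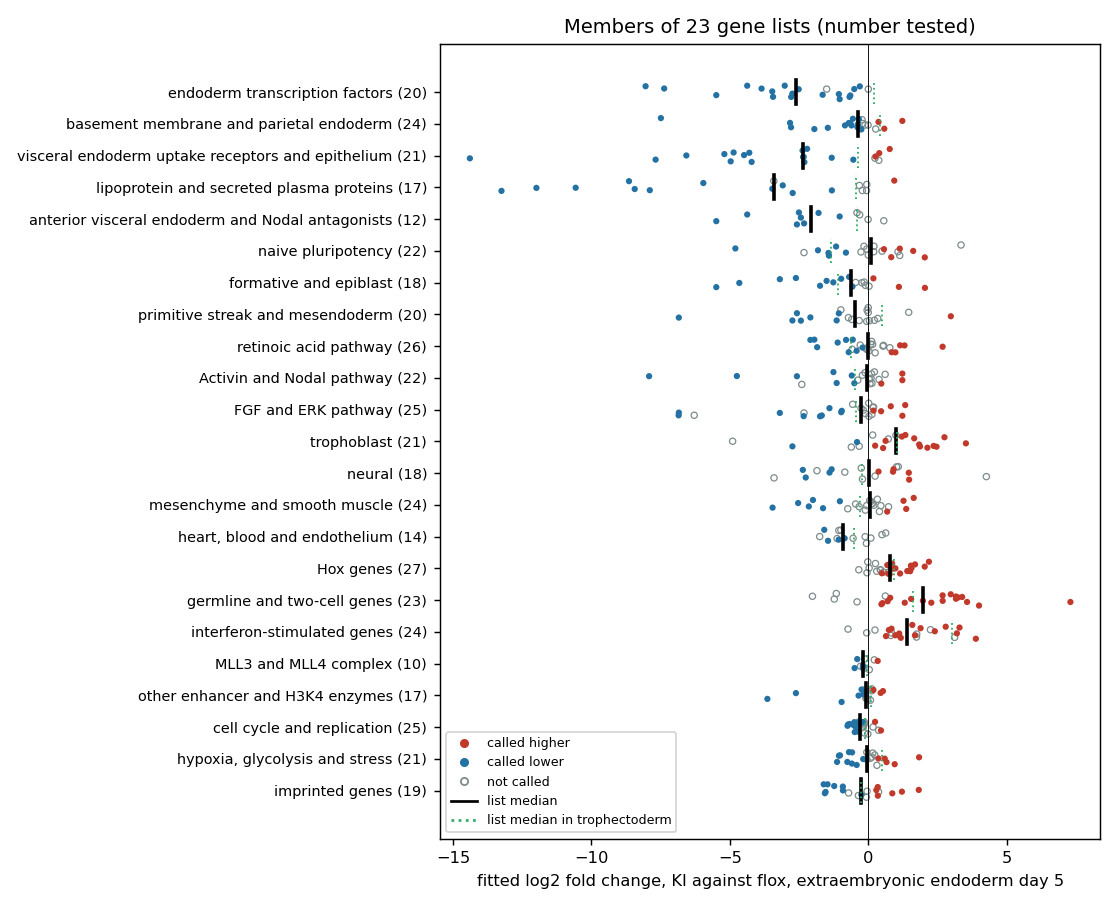
Fitted log2 fold changes (KI against flox, horizontal axis) of the members of 23 gene lists, with the number tested in brackets. Filled points are called genes, open points are not called, black bars are list medians and green dotted bars the medians of the same lists in trophectoderm cultures. Endoderm transcription factors, uptake genes and secreted proteins have black bars well to the left (-2.35 to -3.41) and green bars nearer 0 (-0.43 to 0.21).

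Transcription factors of the endoderm were lower in KI almost throughout. Of 21 genes on the list 20 were tested, 18 were called lower and 0 higher, and 14 of them were at least 2-fold lower. The exceptions were Nr2f2 and Tcf21, which were not called, and Nr1h4, which was too low to test. Tcf21 was called lower without KI48 (edgeR adjusted p = 0.0286), which held all 14 of its KI reads. Gata4, a GATA factor of primitive endoderm and its derivatives, was read at 175 and 189 CPM in flox and 15.6 and 18.0 CPM in KI. Sox7, a SOX factor of the same lineage, was at 32.9 and 33.4 CPM in flox and 2.17 and 2.41 CPM in KI, a log2 fold change of -3.85 (SE 0.24) with an edgeR adjusted p of 2.72e-08. The groups stood far apart for both genes. KI endoderm was within or near the range of undifferentiated stem cells for Sox7, at 2.18 CPM in the flox and 6.03 and 4.74 CPM in the KI stem cell libraries, and above it for Gata4, at 3.50 CPM in the flox and 4.81 and 4.74 CPM in the KI stem cell libraries.

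Hnf4a, the nuclear receptor that drives apolipoprotein genes in visceral endoderm and liver, was among the 10 strongest decreases of genes of at least 5 CPM in flox. It stood at 28.0 and 26.7 CPM in flox and 0.0943 and 0.103 CPM in KI, with 4 reads over both KI libraries. The flox level was 278 (95% exact Poisson interval 109 to 1022) times the KI level. Foxa1 (-1.65, SE 0.20) and Foxa2 (-1.06, SE 0.15), forkhead factors of endoderm, fell by less. Foxa2 was at 65.0 and 72.4 CPM in flox and 38.7 and 27.04 CPM in KI, so that both KI libraries stayed far above the stem cell level of 0.125 CPM in the flox and 0.374 and 0.516 CPM in the KI stem cell libraries.

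Gata6, the factor that starts primitive endoderm, stayed closer to its flox level than Gata4. Its levels were 114 and 113 CPM in flox and 86.1 and 97.8 CPM in KI, and its stem cell level was 0.250 CPM in the flox and 0.514 and 0.845 CPM in the KI stem cell libraries. The KI libraries were thus a little below flox and far above stem cells. Its call was lost without flox replicate 1, without flox replicate 2 and without KI27 (edgeR adjusted p = 0.0961, 0.083 and 0.123). Nr2f2, an orphan nuclear receptor, was at 62.4 and 66.9 CPM in flox and 58.5 and 71.1 CPM in KI, with the KI libraries on both sides of flox. Klf6, a zinc finger factor and the most abundant of the list, was at 270.2 and 276 CPM in flox and 165 and 177 CPM in KI (-0.68, SE 0.06).

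**Figure D3:**
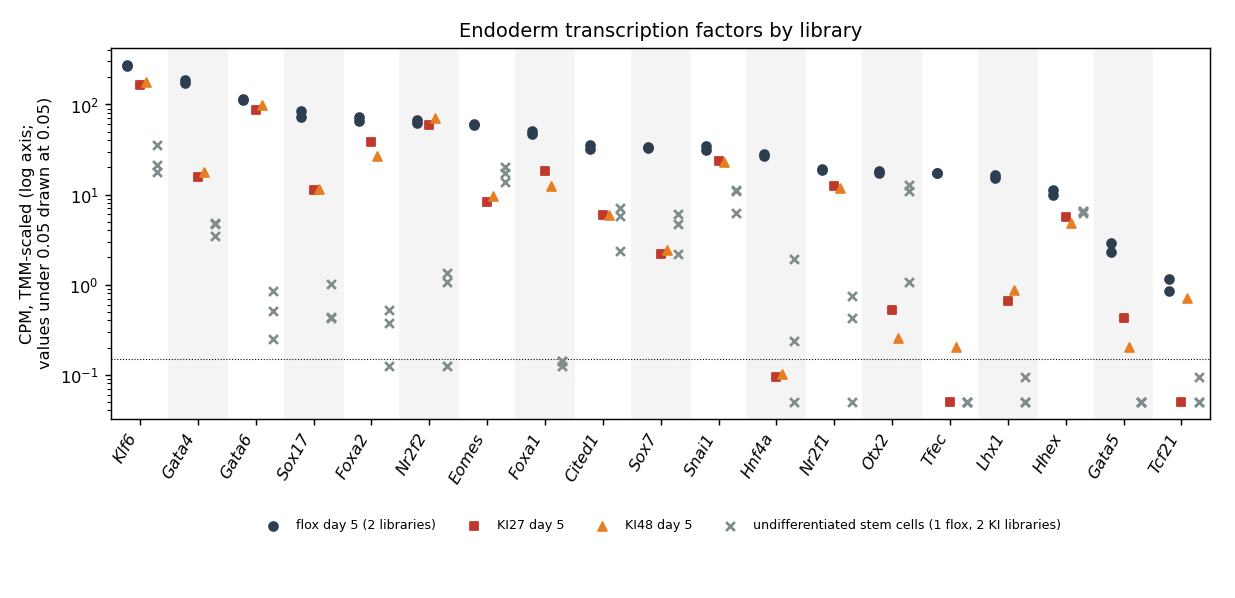
TMM-scaled CPM (log axis) of 19 tested endoderm transcription factors in each library, ordered by flox level, with values under 0.05 drawn at 0.05 and a dotted line at 0.15 CPM, about 3 reads. Circles are flox, squares KI27, triangles KI48 and crosses undifferentiated stem cells; Gata6 and Nr2f2 keep their flox level in KI or nearly so, and Hnf4a and Tfec fall near the dotted line or below it.

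Genes of the anterior visceral endoderm, the signalling tissue that places the head of the embryo, were lower in KI or not called. Of 14 genes 12 were tested, 8 were called lower and 0 higher, with a median of -2.06, and 1 was called higher without KI27. Otx2 and Lhx1, homeodomain factors of that tissue, were at 18.4 and 17.3 CPM in flox and 0.519 and 0.257 CPM in KI, and at 16.5 and 15.3 CPM in flox and 0.660 and 0.872 CPM in KI, respectively. Both KI libraries were under 1 CPM for each. The log2 fold change was -4.37 (SE 0.32) for Lhx1 (edgeR adjusted p = 1.45e-07). For Otx2 it was -5.49 (SE 0.42, edgeR adjusted p = 4.94e-07), and -6.09 without KI27. With 16 KI reads, the flox level of Otx2 was 45.5 (95% exact Poisson interval 28.0 to 79.6) times the KI level. Eomes, a T-box factor that acts in visceral endoderm as well as in trophoblast and streak, fell from 59.2 and 60.5 CPM to 8.30 and 9.65 CPM (-2.74, SE 0.17). Of the secreted antagonists, Sfrp1 (-2.50, SE 0.13), Sfrp5 (-2.32, SE 0.28) and Lefty1 (-2.58, SE 0.31) were called lower, whereas the Wnt antagonist Dkk1 (-0.41, SE 0.19, edgeR adjusted p = 0.115) and the BMP antagonist Nog (-0.01, SE 0.19, edgeR adjusted p = 0.988) were not called. Without KI48, Dkk1 was called lower (-0.64, edgeR adjusted p = 0.027). Cer1 and Hesx1, 2 defining markers of this tissue, were too low to test even in flox, where Cer1 was at 0.450 and 0.422 CPM.

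The absorptive machinery of visceral endoderm split into parts that were nearly lost and parts that stayed. Of 22 genes 21 were tested, 16 were called lower and 3 higher. Cubilin (Cubn) is the large receptor that takes up vitamin B12, albumin and apolipoprotein A-I, and amnionless (Amn) anchors it in the membrane. Cubn was at 465 and 467 CPM in flox and 1.98 and 2.57 CPM in KI, a log2 fold change of -7.68 (SE 0.11, edgeR adjusted p = 1.76e-15). Amn was at 24.5 and 27.4 CPM in flox and 1.37 and 0.924 CPM in KI (-4.49, SE 0.25). Each pair of KI libraries lay far below both flox libraries.

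Megalin (Lrp2), the partner receptor of cubilin, was not lower. It was at 779.5 and 781 CPM in flox and 897 and 951 CPM in KI, a change of 0.24 (SE 0.10) at an edgeR adjusted p of 0.108, and both KI libraries were above both flox libraries. DESeq2 (adjusted p = 0.0173) and an edgeR fit of only these 4 libraries (adjusted p = 0.00128) called it higher. Per length, cubilin was at 31.6 ± 0.141 RPKM in flox and 0.158 ± 0.0280 RPKM in KI (SD, n = 2 each) and megalin at 38.8 ± 0.119 RPKM in flox and 46.9 ± 1.75 RPKM in KI, so the 2 receptors stood at similar levels in flox and far apart in KI. Dab2, the adaptor that links megalin to endocytosis, fell from 400.1 and 398 CPM to 75.7 and 80.3 CPM. Lrpap1, the chaperone of megalin and its relatives, fell from 328 and 319 CPM to 131 and 129 CPM (-1.32, SE 0.08). Cubn, Dab2 and Lrpap1, 3 genes whose products work with megalin, were thus lower while Lrp2 was not.

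Other genes of this epithelium followed cubilin. The microvillus protein villin (Vil1) was at 17.0 and 17.6 CPM in flox and 0.566 and 0.359 CPM in KI, the lysosomal protease cathepsin H (Ctsh) at 67.2 and 64.7 CPM in flox and 2.31 and 2.21 CPM in KI and the chloride channel protein Clic6 at 105 and 106 CPM in flox and 7.31 and 4.00 CPM in KI. All 3 were at least 8-fold lower in both KI libraries than in either flox library. Indian hedgehog (Ihh), the signal from visceral endoderm that induces blood in the neighbouring mesoderm, was at 10.8 and 11.1 CPM in flox and 0.377 and 0.308 CPM in KI, and the flox level was 31.8 (95% exact Poisson interval 18.9 to 58.1) times the KI level. Cdh1, Cldn6 and Epcam, general epithelial genes of the same list, were not called lower. E-cadherin (Cdh1) was called higher, at 715 and 702 CPM in flox and 1364 and 1063 CPM in KI (0.78, SE 0.11), as was claudin 6 (Cldn6, 0.40, SE 0.07). Epcam was not called (0.38, SE 0.25, edgeR adjusted p = 0.316) except without KI48, where it was higher (0.69). Without KI27 the change of Epcam was -0.03.

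Secreted proteins of visceral endoderm included many large decreases. Of 26 genes 17 were tested, 11 were called lower, all of them at 2-fold, and Apoc1 alone was called higher. Apolipoprotein B (Apob), the structural protein of lipoproteins, was at 542 and 519.8 CPM in flox and 0 and 0.103 CPM in KI, and both of its 2 KI reads were in KI48. The flox level was 10812 (95% exact Poisson interval 2993 to 89282) times the KI level, and the fitted change was -12.27 without KI27. Apolipoprotein A-I (Apoa1) was at 8.85 and 7.38 CPM in flox and 0 and 0 CPM in KI, at least 54.9-fold lower in KI when 3 reads are allowed in each KI library. Transthyretin (Ttr), the thyroxine carrier, was at 22.8 and 20.6 CPM in flox and 0 and 0 CPM in KI, at least 147-fold lower. Neither gene had a read in KI.

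Genes with other roles in the same export route were still read in both KI clones. Mttp, the transfer protein that loads lipid onto apolipoprotein B, was at 50.8 and 55.8 CPM in flox and 7.22 and 8.88 CPM in KI (-2.73, SE 0.15, edgeR adjusted p = 1.03e-08), above the stem cell level in both KI libraries. Retinol-binding protein (Rbp4) was at 15.7 and 14.0 CPM in flox and 5.90 and 6.05 CPM in KI (-1.31, SE 0.25). Alpha-fetoprotein (Afp) was at 48.5 and 43.8 CPM in flox and 0.755 and 0.718 CPM in KI (-5.96, SE 0.23, edgeR adjusted p = 5.83e-10). Apolipoprotein E (Apoe), which stem cells also express, was at 529 and 535 CPM in flox and 46.1 and 50.2 CPM in KI (-3.47, SE 0.28), and in stem cells at 1327 CPM in the flox and 798 and 786 CPM in the KI stem cell libraries. Its KI endoderm level was therefore below that of every stem cell library as well. Transferrin (Trf), the iron carrier, was at 7.05 and 6.54 CPM in flox and 6.32 and 6.72 CPM in KI, with overlapping groups, and was not called.

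**Figure D4:**
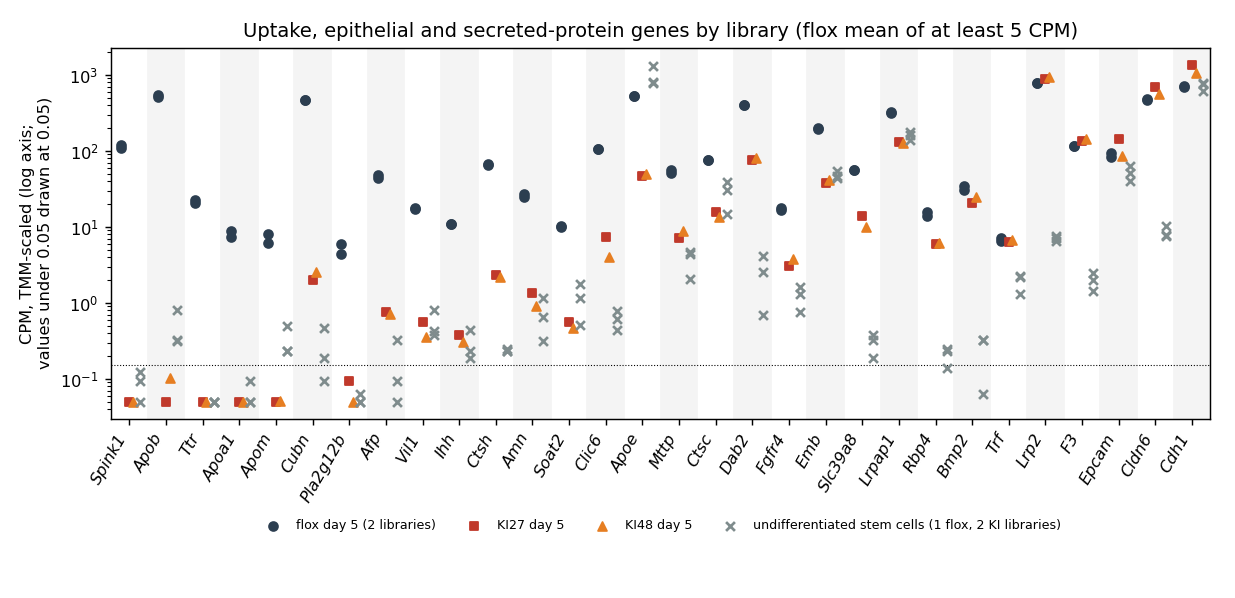
TMM-scaled CPM (log axis) of uptake, epithelial and secreted-protein genes with a flox mean of at least 5 CPM, ordered from the largest decrease on the left, with values under 0.05 drawn at 0.05 and a dotted line at 0.15 CPM. Spink1, Apob and Ttr on the left lie at or near the bottom in both KI clones, and Lrp2, Epcam, Cldn6 and Cdh1 on the right lie near or above their flox level.

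The promoters of 4 genes with 0 to 12 reads in KI are shown because these genes fell to few or no reads; those of Apom and Cubn were also searched and held 0 of both motifs. Each runs from 250 bases before to 50 after the RefSeq start (assembly GRCm38.p6), and capitals mark matches on either strand to GATAA, the core of GATA factor sites, or GTTAAT, the core of HNF1 sites. Apob (chr12:7977427-7977726, plus strand) and Apoa1 (chr9:46228380-46228679, plus strand) hold 1 GATAA each, Habp2 (chr19:56287662-56287961, plus strand) 1 GTTAAT, and Hkdc1 (chr10:62422408-62422707, minus strand) 0 of both.
Apob: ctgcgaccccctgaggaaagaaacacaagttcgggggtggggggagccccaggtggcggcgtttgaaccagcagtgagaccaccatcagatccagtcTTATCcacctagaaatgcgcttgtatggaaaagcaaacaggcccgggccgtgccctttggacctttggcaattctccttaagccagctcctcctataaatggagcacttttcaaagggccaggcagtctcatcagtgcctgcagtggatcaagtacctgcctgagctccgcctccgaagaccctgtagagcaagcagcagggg
Apoa1: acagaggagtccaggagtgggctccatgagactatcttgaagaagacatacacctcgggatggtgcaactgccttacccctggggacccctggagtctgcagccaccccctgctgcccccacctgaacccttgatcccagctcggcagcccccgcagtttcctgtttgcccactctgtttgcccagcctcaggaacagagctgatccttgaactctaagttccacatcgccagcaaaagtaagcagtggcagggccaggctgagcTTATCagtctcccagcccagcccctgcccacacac
Habp2: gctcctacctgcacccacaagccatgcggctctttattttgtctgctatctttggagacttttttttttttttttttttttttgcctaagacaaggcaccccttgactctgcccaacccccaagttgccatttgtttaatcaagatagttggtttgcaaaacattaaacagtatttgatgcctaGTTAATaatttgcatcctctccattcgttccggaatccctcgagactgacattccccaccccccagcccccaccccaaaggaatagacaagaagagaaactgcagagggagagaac
Hkdc1: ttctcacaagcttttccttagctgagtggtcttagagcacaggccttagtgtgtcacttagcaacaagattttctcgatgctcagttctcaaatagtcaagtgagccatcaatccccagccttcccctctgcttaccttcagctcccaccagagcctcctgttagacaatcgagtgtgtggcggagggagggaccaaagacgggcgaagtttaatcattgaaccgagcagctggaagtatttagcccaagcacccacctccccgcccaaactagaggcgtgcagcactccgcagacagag
Of 32851 such windows over all genes, 25.4% hold GATAA and 7.1% GTTAAT, so 1 match is common. A match describes these letters only, and no binding was measured here.

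The 10 strongest decreases among genes of at least 5 CPM in flox were largely secreted proteins. Besides Apob, Apoa1, Ttr, Hnf4a and the apolipoprotein Apom they held Spink1, a trypsin inhibitor (at least 778-fold lower), Pga5, a pepsinogen (at least 164-fold), and Habp2, a hyaluronan-binding serine protease (at least 49.5-fold), all 3 without a read in KI. Srgn, the proteoglycan serglycin, was at 36.6 and 37.7 CPM in flox and 0.141 and 0 CPM in KI, with all 3 KI reads in KI27, a flox level 504 (95% exact Poisson interval 172 to 2443) times the KI level (fitted change -7.99 without KI48). Hkdc1, a hexokinase, was at 88.0 and 88.1 CPM in flox and 0.283 and 0.308 CPM in KI, and the flox level was 299 (95% exact Poisson interval 171 to 578) times the KI level. Both KI clones were at or near 0 for all of these genes.

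Most basement membrane genes moved by less than 2-fold, in both directions. All 24 genes of the list were tested, 16 were called lower and 3 higher, 5 of the lower ones at 2-fold, and the median was -0.38. The water channel Aqp8, at 0.600 and 1.32 CPM in flox and 0 and 0 CPM in KI, was at least 6.49-fold lower and was not called without flox replicate 2 (edgeR adjusted p = 0.0662). Laminin alpha 1 (Lama1), a laminin alpha chain of the early embryo, was at 1062 and 1035 CPM in flox and 115 and 189 CPM in KI (-2.79, SE 0.30, edgeR adjusted p = 0.00289). Laminin beta 1 (Lamb1) was at 1291 and 1278 CPM in flox and 861 and 831 CPM in KI (-0.60, SE 0.05). Laminin gamma 1 (Lamc1) was not called (-0.20, SE 0.09, edgeR adjusted p = 0.121), and laminin alpha 5 (Lama5), the later alpha chain, was higher, at 1093 and 1072 CPM in flox and 1591 and 1646 CPM in KI (0.58, SE 0.04). Lamc1 was called lower by DESeq2 (adjusted p = 0.0288) and without KI48 (-0.36, edgeR adjusted p = 7.44e-06). The alpha chains moved apart, Lama1 down and Lama5 up, in both clones.

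Type IV collagen stayed among the most abundant RNAs of both genotypes. Col4a1 was at 3050.0 and 2956 CPM in flox and 2409 and 2166 CPM in KI (-0.39, SE 0.05), and Col4a2, which shares its promoter region and forms the same trimer, was at 1926 and 1884 CPM in flox and 1966 and 1828 CPM in KI and was not called. Their stem cell levels were 9.93 and 4.12 CPM in flox, so both collagens stood far above stem cells in KI. Of parietal endoderm markers, the parathyroid hormone receptor Pth1r fell from 68.4 and 68.6 CPM to 11.8 and 7.39 CPM (-2.83, SE 0.21) and Tfpi, an inhibitor of tissue factor, from 165 and 149 CPM to 58.2 and 56.2 CPM (-1.46, SE 0.08). Thbd (thrombomodulin, 0.27, SE 0.17) and Krt19 (keratin 19, -0.11, SE 0.06) were not called, with edgeR adjusted p of 0.255 and 0.164, though Krt19 was called lower without KI27 (-0.22, edgeR adjusted p = 0.0059). Sparc, a matrix glycoprotein, was at 2138 and 2116 CPM in flox and 1216 and 1399 CPM in KI (-0.70, SE 0.07).

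The 10 genes with the most reads in flox among those called lower at 2-fold encode matrix and membrane proteins for the most part. Tenascin C (Tnc), a matrix glycoprotein, was at 1007 and 988 CPM in flox and 185 and 208 CPM in KI (-2.35, SE 0.09). The mannose 6-phosphate receptor Igf2r, which clears IGF2 and whose gene overlaps the non-coding Airn, was at 1001 and 1001 CPM in flox and 319 and 337 CPM in KI (-1.61, SE 0.05), and the lactate transporter Slc16a1 at 657 and 651 CPM in flox and 114 and 110.2 CPM in KI (-2.54, SE 0.05). In all 3 the KI clones lay close together and far from flox. The collagen chain Col1a1 was at 1491 and 1398 CPM in flox and 83.1 and 180.4 CPM in KI (-3.46, SE 0.47, edgeR adjusted p = 0.00726), with KI48 above KI27. Its change was -4.12 without KI48, and a fit of only the 4 libraries did not call it (edgeR adjusted p = 0.0567). The angiomotin gene Amot, the glypican Gpc3, the glucose transporter Slc2a3 and the paternally expressed Peg3 changed by -1.09 to -1.57, and Lama1 and Dlk1 completed the 10.

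The 10 genes with the most reads in KI among those called higher at 2-fold belong largely to epithelia. Keratin 7 (Krt7), of simple epithelia and trophoblast, was at 89.3 and 93.8 CPM in flox and 561 and 381 CPM in KI (2.36, SE 0.20, edgeR adjusted p = 0.000771). The tight junction protein claudin 4 (Cldn4) was at 253 and 258 CPM in flox and 1103 and 789 CPM in KI (1.89, SE 0.17). Integrin alpha 6 (Itga6), a laminin receptor, was at 140.2 and 135 CPM in flox and 506 and 562 CPM in KI (1.96, SE 0.06). Both KI clones were above both flox libraries in each of them. The epithelial 14-3-3 protein Sfn, the laminin receptor Bcam, skeletal actin (Acta1), galectin 1 (Lgals1) and Peg10 were also among the 10, with changes from 1.09 to 2.01.

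Trophoblast genes were higher in KI as a list, in a culture that was not directed to that lineage. Of 23 genes 21 were tested, 13 were called higher and 2 lower (Eomes and Hand1), and 10 of the 13 were at least 2-fold higher. Without KI48, Eomes alone was lower (Hand1, edgeR adjusted p = 0.0622). Their summed level was 5939 and 5911 CPM in flox and 11127 and 10479 CPM in KI. Wnt7b, a Wnt ligand of chorion, was at 5.60 and 4.01 CPM in flox and 69.1 and 41.9 CPM in KI (3.53, SE 0.32, edgeR adjusted p = 0.00059). The placental homeobox gene Esx1 was at 6.35 and 7.75 CPM in flox and 53.2 and 41.8 CPM in KI (2.75, SE 0.14), Gata3, a trophectoderm factor, at 21.4 and 20.7 CPM in flox and 80.6 and 69.9 CPM in KI (1.84, SE 0.10) and Bmp8b, a BMP ligand of extraembryonic ectoderm, at 8.75 and 7.80 CPM in flox and 53.5 and 37.97 CPM in KI (2.47, SE 0.16). The KI groups lay above flox in all 4, and KI27 was above KI48 in each.

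Cdx2 and Elf5, genes of trophoblast stem cells, were not part of that rise, whereas others on the list, such as Gata3, were. Cdx2 was at 2.75 and 4.01 CPM in flox and 2.26 and 3.13 CPM in KI and Elf5, at most 0.21 CPM in flox, had 0 reads in KI and was not called (edgeR adjusted p = 0.0536). Elf5 was called lower by DESeq2 (adjusted p = 0.0342), without the filter (edgeR adjusted p = 0.0297) and with sums over transcripts (edgeR adjusted p = 0.0286). Tpbpa and Prl3d1, of differentiated trophoblast, had 0 reads in all 4 libraries. KI27 exceeded KI48 in 13 of the 15 called members, and the list median was 0.49 without KI27 and 0.63 without flox replicate 1. The part of trophoblast cells in the higher list was not tested.

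Pluripotency genes gave no common direction. All 22 were tested, 5 were called higher and 6 lower, and the median was 0.10 (-0.08 without flox replicate 2). Pou5f1 (Oct4), the central pluripotency factor, was at 2.10 and 2.64 CPM in flox and 4.15 and 6.31 CPM in KI, against 1744 CPM in the flox and 1532 and 1596 CPM in the KI stem cell libraries. Nanog was at 0.650 and 0.843 CPM in flox and 1.32 and 0.770 CPM in KI. Both were far below their stem cell level in every library and were not called (edgeR adjusted p = 0.209 and 0.684). Pou5f1 was called higher in KI by DESeq2 (1.14, adjusted p = 0.018) and in the fit of only the 4 libraries (edgeR adjusted p = 0.013). Klf2 (2.04, SE 0.21) and Esrrb (1.63, SE 0.21) were called higher, at 7.41 and 10.7 CPM and 3.30 and 3.69 CPM in KI. The RNA-binding protein Lin28a, kept on in early endoderm, was at 368 and 363 CPM in flox and 107 and 100.0 CPM in KI (-1.82, SE 0.06, edgeR adjusted p = 8.35e-11) and Tdh, threonine dehydrogenase, at 23.7 and 21.8 CPM in flox and 0.566 and 1.08 CPM in KI (-4.80, SE 0.49).

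Formative and epiblast genes were more often lower than higher. All 18 were tested, 10 were called lower and 3 higher (1 higher without either flox library). Fgf5, the standard marker of early epiblast, was at 29.7 and 29.2 CPM in flox and 3.54 and 2.87 CPM in KI (-3.19, SE 0.27). Dnmt3b, a de novo DNA methyltransferase, was at 138 and 139.9 CPM in flox and 24.8 and 20.6 CPM in KI (-2.61, SE 0.08, edgeR adjusted p = 3.85e-11), and its cofactor Dnmt3l at 13.4 and 16.8 CPM in flox and 1.604 and 0.770 CPM in KI (-3.64, SE 0.23, and -4.28 without KI27). The Dnmt3l gene overlaps Aire. In the list of primitive streak genes 20 of 22 were tested, 7 were called lower and 1, Cdx1 (2.98, SE 0.24), higher, with 4 lower without flox replicate 2 or without KI27. Brachyury (T), the defining streak gene, was under 0.4 CPM in all 4 libraries.

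In the retinoic acid, Activin and FGF pathways the share of genes called higher, with all libraries, was close to or below the 18.1% of all genes. The share called lower was above the 17.4% of all genes in each of these pathways. Of 27 retinoic acid pathway genes 26 were tested, with 5 called higher and 9 lower, against 8 higher and 6 lower without KI48. The receptor gene Rarb, a direct target, was not called (36.1 and 40.7 CPM in flox and 53.7 and 37.6 CPM in KI) except without KI48 (0.48, edgeR adjusted p = 0.0242), and Rarg was higher (0.85, SE 0.07). Cyp26a1, which degrades retinoic acid and is a direct target, was at 285 and 269 CPM in flox and 61.2 and 68.8 CPM in KI (-2.09, SE 0.41, edgeR adjusted p = 0.02), but the call was lost without any 1 of the 4 libraries (edgeR adjusted p from 0.0769 without KI48 to 0.0975 without KI27). Stra6, the retinol transporter, was at 30.3 and 26.3 CPM in flox and 6.13 and 8.57 CPM in KI (-1.95, SE 0.23). Stra8, known both as a retinoic acid target and as the gate to meiosis, was at 2.85 and 2.27 CPM in flox and 17.0 and 16.1 CPM in KI (2.69, SE 0.26, edgeR adjusted p = 2.37e-06). Known targets of the same ligand stood on both sides.

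In the Activin and Nodal pathway 22 of 24 genes were tested, and 7 were called lower and 3 higher. With all libraries the share called lower was above the 17.4% of all genes. Fewer members were called lower without flox replicate 2 or without KI27. Foxh1, the DNA-binding partner of SMAD2, was at 22.7 and 22.3 CPM in flox and 1.08 and 0.564 CPM in KI (-4.75, SE 0.34, edgeR adjusted p = 2.38e-06), and Cfc1, the co-receptor cryptic, had 0 reads in KI against 1.15 and 1.42 CPM in flox. The receptors Acvr1b (-0.11), Acvr2a (0.04) and Acvr2b (0.06) were not called. Of 25 FGF pathway genes, all tested, 9 were called lower and 5 higher, 3 higher without either flox library. Klb, the co-receptor for endocrine FGFs, was at 26.2 and 25.9 CPM in flox and 0.377 and 0.0513 CPM in KI, a flox level 118 (95% exact Poisson interval 62.1 to 258) times the KI level. The fitted change of Klb was -8.85 without KI27 and -6.09 without KI48. Fgfr4, its partner receptor, was at 16.6 and 18.0 CPM in flox and 3.07 and 3.80 CPM in KI (-2.33, SE 0.24). Fgfr1 was higher (0.81, SE 0.05). Fgfr2, another receptor of the family, was not called (0.17, SE 0.08, edgeR adjusted p = 0.11) except without KI48 (0.26).

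Germline genes were the list with the highest median. Of 24 genes 23 were tested, and 18 were called higher and 0 lower. The reproductive homeobox genes Rhox6 and Rhox9, which are also expressed in placenta, were at 12.6 and 11.3 CPM in flox and 172 and 112 CPM in KI, and at 8.75 and 6.54 CPM in flox and 152 and 93.8 CPM in KI. Piwil2, a piRNA-pathway protein, was at 1.85 and 2.42 CPM in flox and 20.5 and 18.0 CPM in KI (3.17, SE 0.20, edgeR adjusted p = 3.12e-08). Sycp1, a protein of the meiotic synaptonemal complex, was at 5.45 and 5.27 CPM in flox and 23.4 and 18.7 CPM in KI (1.98, SE 0.21), and Taf7l, a germ cell transcription factor subunit, at 5.55 and 4.11 CPM in flox and 36.2 and 26.2 CPM in KI (2.69, SE 0.21). KI exceeded flox without overlap in each, and KI27 exceeded KI48 in 16 of the 18 called genes.

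Part of the list was already higher in KI stem cells. Sycp1 was at 2.68 CPM in the flox and 11.4 and 11.6 CPM in the KI stem cell libraries, and Piwil2 at 8.36 CPM in the flox and 40.1 and 29.1 CPM in the KI stem cell libraries. The two-cell genes Zscan4c (-1.23, SE 0.56) and Zscan4d (-1.15, SE 0.67) were not called, with lower values in KI, and 3 genes of the list, these 2 among them, were called lower without KI27. The list median was 1.39 without KI27. The Xlr, Zscan4 and Rhox genes belong to families of nearly identical copies, among which reads may have been divided, and the values of single members are uncertain.

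The 10 strongest increases among genes of at least 5 CPM in KI overlapped with the germline group. They held the X-linked Mageb4, Rhox2a, Rhox2e, Rhox9, Luzp4 and a predicted gene, and the testis gene Fkbp6, at 0.750 and 1.32 CPM in flox and 16.4 and 21.7 CPM in KI. The others were Tgm1, the transglutaminase of stratified epithelium, at 11.3 and 11.2 CPM in flox and 207 and 155 CPM in KI (4.00, SE 0.13, edgeR adjusted p = 1.4e-09), neurotensin (Nts), a gut and brain peptide, at 1.75 and 2.37 CPM in flox and 43.2 and 35.8 CPM in KI (4.26, SE 0.21), and Adtrp, a regulator of tissue factor pathway inhibitor, at 0.400 and 0.105 CPM in flox and 6.89 and 6.57 CPM in KI (4.69, SE 0.41). Without flox replicate 1 the change was 5.93 for Adtrp, 6.75 for Rhox2a, 6.52 for Rhox2e and 4.54 for Luzp4, and without flox replicate 2 it was 4.05, 4.92 and 4.69 for the first 3. Over the X chromosome 14.1% of 587 tested genes were higher at 2-fold, against 3.51% to 8.34% on single autosomes, and 7.5% were lower, against 2.8% to 6.5%. Of the 83 X-linked genes that were higher, 49 were already at least 2-fold higher in both KI stem cell libraries than in the flox one.

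Interferon-stimulated genes were higher in KI at low levels. All 24 were tested, 15 were called higher and 0 lower, and 9 were called without flox replicate 1. Ifih1 (MDA5), a sensor of double-stranded RNA, was at 1.80 and 2.00 CPM in flox and 9.81 and 10.4 CPM in KI (2.41, SE 0.18, edgeR adjusted p = 2.08e-07). Xaf1 was at 1.70 and 2.16 CPM in flox and 6.98 and 5.44 CPM in KI (1.69, SE 0.22). The clones differed for much of the list, and KI27 exceeded KI48 in 13 of the 15 called genes. Their summed level was 153 and 157 CPM in flox and 382 and 279 CPM in KI.

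Hox genes, the positional regulators that retinoic acid induces, were higher or not called. All 27 were tested, 15 were called higher and 0 lower, and the median was 0.77. Hoxa5, whose gene overlaps Hoxa3, was at 26.9 and 30.4 CPM in flox and 64.1 and 63.2 CPM in KI (1.15, SE 0.15). Of the D cluster, Hoxd1 was at 1.65 and 2.85 CPM in flox and 8.49 and 12.1 CPM in KI (2.19, SE 0.37), Hoxd4 at 4.50 and 3.64 CPM in flox and 11.6 and 12.2 CPM in KI (1.54, SE 0.22) and Hoxd9 at 5.70 and 6.01 CPM in flox and 14.9 and 16.3 CPM in KI (1.41, SE 0.16, edgeR adjusted p = 9.87e-06). The 2 clones were close in these genes. Hoxb1 (0.78, SE 0.51), Hoxb2 (0.03, SE 0.18) and Hoxb4 (-0.02, SE 0.18), of the B cluster, were not called, and the value of Hoxb1 was 0.10 without KI27.

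Markers of other cell types moved in part with these changes. Of 24 mesenchyme and smooth muscle genes, all tested, 4 were called higher and 6 lower. Smooth muscle actin (Acta2) was at 2063 and 2076 CPM in flox and 1959 and 2469.8 CPM in KI and was not called except without KI27 (0.25, edgeR adjusted p = 0.000629), calponin (Cnn1) rose (1.37, SE 0.11), and the fibrillar collagen Col3a1 (-1.63, SE 0.15) fell, as did the cadherin Cdh11 (-2.15, SE 0.22). The summed level of this list was 12546 and 12454 CPM in flox and 9915 and 11829 CPM in KI, and 0 of its 10 called genes were higher in KI27 than in KI48. For 18 tested neural genes 5 were called higher and 4 lower, and the number higher was 0 without flox replicate 1, 2 without flox replicate 2 and 1 without KI48. Their summed level was 646 and 669 CPM in flox and 546 and 684 CPM in KI, and Hes5 had 0 reads. Of 14 tested heart, blood and endothelial genes 4 were called lower and 0 higher, with 1 higher without KI27. Their summed level was 316 and 311 CPM in flox and 175 and 224 CPM in KI, and the leukocyte gene Ptprc and the globin gene Hbb-bh1 had 0 reads in all 4 libraries. The part of other cell types in the endoderm result was not tested.

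Imprinted genes included some of the most abundant RNAs that changed. Of 19 tested, 8 were called lower and 6 higher. The growth factor Igf2 was at 2565 and 2511 CPM in flox and 1364 and 1330.4 CPM in KI (-0.91, SE 0.04, edgeR adjusted p = 5.76e-10), the zinc finger gene Plagl1 at 379.7 and 359 CPM in flox and 142 and 173 CPM in KI (-1.23, SE 0.10) and Grb10, an adaptor that restrains growth, at 1053 and 1015 CPM in flox and 493 and 602 CPM in KI (-0.92, SE 0.08). On the higher side, Peg10, a retrotransposon-derived gene of the placenta, was at 2498 and 2459 CPM in flox and 5612 and 5908 CPM in KI (1.22, SE 0.05) and Phlda2, which limits placental growth, at 5.65 and 7.06 CPM in flox and 23.6 and 21.3 CPM in KI (1.83, SE 0.16). Peg10 already differed in stem cells, at 13.9 CPM in the flox and 578 and 388 CPM in the KI stem cell libraries. Dlk1 was at 672 and 708 CPM in flox and 176 and 322 CPM in KI (-1.47, SE 0.31, edgeR adjusted p = 0.0244) and was not called without flox replicate 1 (edgeR adjusted p = 0.088), without flox replicate 2 (edgeR adjusted p = 0.0966) or in the fit of only the 4 libraries (edgeR adjusted p = 0.128).

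Cell cycle genes were more often called lower than higher. Of 25 cell cycle genes, all tested, 14 were called lower and 2 higher, 0 of them at 2-fold, with a median of -0.29, and 1 was higher without either flox library. Mki67, the usual proliferation marker, was at 357 and 347 CPM in flox and 216 and 209 CPM in KI (-0.73, SE 0.05), and the cell cycle inhibitor Cdkn1a was slightly higher (0.25, SE 0.05). Among 21 hypoxia, glycolysis and stress genes 9 were called lower and 5 higher, with 3 higher without flox replicate 1 or KI48 and 2 without flox replicate 2. Lactate dehydrogenase (Ldha) was at 508 and 523 CPM in flox and 243 and 251 CPM in KI (-1.06, SE 0.04, edgeR adjusted p = 2.99e-10), hexokinase 2 (Hk2) changed by -1.02 (SE 0.06) and phosphofructokinase (Pfkl) by -1.13 (SE 0.06), while the glucose transporter Slc2a1 rose (0.66, SE 0.08). The highest change of the list was that of Chac1, a glutathione-degrading stress gene, at 0.700 and 1.26 CPM in flox and 2.12 and 4.93 CPM in KI (1.84, SE 0.46), but it was not called without flox replicate 1 (edgeR adjusted p = 0.0868) or without KI48 (1.11, edgeR adjusted p = 0.102). Chac1 was named after its values were seen.

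The complex that holds MLL3 and MLL4 changed little in its own RNAs. Of 10 genes 4 were called lower and 1 higher, 0 of them at 2-fold, with 1 lower without flox replicate 1 and 2 higher without KI27. Dpy30 (-0.49, SE 0.12), Paxip1 (-0.40, SE 0.10), Wdr5 (-0.19, SE 0.07) and Kmt2d (-0.20, SE 0.06) were the lower ones and Ash2l (0.34, SE 0.05) the higher one, and without flox replicate 1 Dpy30, Wdr5 and Kmt2d were not called (edgeR adjusted p = 0.0587, 0.22 and 0.163). Wdr5 was also lost without flox replicate 2 or KI48 (edgeR adjusted p = 0.107 and 0.275), by DESeq2 (adjusted p = 0.0546) and in the fit of only the 4 libraries (edgeR adjusted p = 0.0546), and Kmt2d without KI27 (edgeR adjusted p = 0.0559). Kdm6a (-0.13, SE 0.08) and Ncoa6 (0.04, SE 0.06) were not called. Of 17 other enhancer and H3K4 enzymes 6 were lower and 3 higher, with 3 lower and 1 higher without KI48 and 1 higher without flox replicate 1. The acetyltransferases Ep300 (-0.13, SE 0.06) and Crebbp (-0.09, SE 0.09) and the demethylase Kdm1a (-0.12, SE 0.05) were not called.

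Levels in the undifferentiated stem cells, with 1 flox library and 2 KI libraries, were set beside these values without a test, and for genes called at 2-fold between KI and flox endoderm a shift between the 2 shares partly restates that choice. The molecule is labelled total RNA in the endoderm cultures and poly(A) RNA in the stem cells, though the protocols in the labels give poly(A) selection for both. In counts and shares above stem cells, the lower endoderm library was compared with the stem cell level, with a small constant added to both. That level was the 1 flox library or the higher of the 2 KI libraries, so the KI criterion was the stricter. Of 93 genes in the 4 lists of endoderm factors, basement membrane, uptake and secreted proteins, counted whether tested or not, 68 were at least 2-fold above stem cells in flox endoderm and 39 in KI endoderm. The count went from 19 to 9 for factors, from 19 to 9 for uptake genes and from 11 to 3 for secreted proteins, and from 19 to 18 for basement membrane genes. Of the 736 genes lower at 2-fold in KI, 66.0% were at least 2-fold above stem cells in flox endoderm, against 24.1% of all genes tested, and 31.2% in KI endoderm, against 21.4% of all. Of them 8.42% were already at least 2-fold lower in both KI stem cell libraries, against 2.27% of all. Of the 972 genes higher at 2-fold, 47.8% were at least 2-fold above stem cells in KI endoderm (21.4% of all) and 30.1% in flox (24.1% of all), and 19.1% were already higher in both KI stem cell libraries, against 3.99% of all.

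Trophectoderm cultures of flox and KI cells, driven for 6 days by a doxycycline-inducible CDX2 transgene in medium conditioned by fibroblasts, were used to ask which changes differ between the 2 lineages. The difference of the KI effects (an edgeR interaction term) was called for 35.3% of genes. All 889 genes called in opposite directions in the 2 cultures were among them, which opposite calls in the same fit make nearly certain. Of the 736 lower genes 45.0% were also called lower in trophectoderm and 12.9% were called higher there, against 24.2% and 26.7% of all genes. Of the 972 higher genes 49.1% were called higher and 11.4% lower in trophectoderm. The difference was called for 15 of 20 endoderm transcription factors, 16 of 21 uptake genes (18 with the line as a replicate block) and 8 of 17 secreted proteins (5 without flox endoderm replicate 1). For germline genes the number depended on the fit, with 6 of 23 called, 11 with the line as a replicate block, 2 without flox endoderm replicate 1, 3 without flox trophectoderm replicate 2 and 10 without KI27 endoderm.

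Cited1, a transcriptional coactivator of visceral endoderm and placenta, shows the 2 directions. In endoderm it was at 35.8 and 31.8 CPM in flox and 5.99 and 5.85 CPM in KI, and in trophectoderm at 32.1 and 32.2 CPM in flox and 50.8 and 62.3 CPM in KI, a difference of -3.33 (SE 0.17) in the log2 effect (edgeR adjusted p = 8.29e-09). Tnc fell in endoderm and in trophectoderm was at 5.03 and 5.39 CPM in flox and 23.3 and 28.8 CPM in KI, a difference of -4.67 (SE 0.14). Rhox6 rose in both, with 81.3 and 75.6 CPM in flox and 489.5 and 384 CPM in KI in trophectoderm, and the difference of 1.09 (SE 0.37) was not called (edgeR adjusted p = 0.0866) but was by DESeq2 (adjusted p = 0.00825), with sums over transcripts (edgeR adjusted p = 0.0438), with the line as a replicate block (edgeR adjusted p = 2.79e-07), without KI27 endoderm (edgeR adjusted p = 0.0277) and without KI48 endoderm (edgeR adjusted p = 0.00159). For Ifih1 the rise was larger in trophectoderm, at 3.19 and 3.72 CPM in flox and 48.4 and 56.3 CPM in KI, and the difference was -1.51 (SE 0.25, edgeR adjusted p = 0.000337). Hk2 and Ldha fell in endoderm and were higher in KI trophectoderm, with differences of -2.08 (SE 0.08) and -1.99 (SE 0.06).

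The 2 KI clones were alike over most genes but not over all. Of genes of at least 1 CPM in either library, 193 of 13791 (1.4%) differed at least 2-fold between KI27 and KI48, against 53 of 13625 (0.389%) between the flox libraries. At 5 CPM the shares were 0.514% and 0.0176%. The maternally expressed RNAs of the Dlk1 cluster on chromosome 12 stood out: Meg3 was at 250.4 and 234 CPM in flox and 378 and 0 CPM in KI, Rian at 256 and 259 CPM in flox and 319 and 0.0513 CPM in KI and Mirg at 9.70 and 9.59 CPM in flox and 17.6 and 0 CPM in KI. KI48 thus had 0 reads of Meg3 and Mirg and 1 of Rian, and the other 3 libraries had high levels. The Meg3 span overlaps Rtl1, and Dlk1, the paternally expressed gene of the cluster, was higher in KI48 than in KI27. Meg3 was at least 2456-fold higher in KI27 than in KI48. The same clone was low in stem cells, with Meg3 at 93.3 CPM in the flox and 176 and 0.892 CPM in the KI stem cell libraries.

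Y-linked genes gave a second difference between the clones, chosen like the first after the values were seen. Ddx3y, an RNA helicase, was at 87.5 and 88.1 CPM in flox and 84.2 and 14.9 CPM in KI, Eif2s3y at 50.5 and 48.2 CPM in flox and 62.3 and 11.4 CPM in KI, Kdm5d at 12.0 and 12.1 CPM in flox and 27.6 and 1.33 CPM in KI and Uty at 31.5 and 33.5 CPM in flox and 30.1 and 6.88 CPM in KI. KI48 was the low library for each of the 4, at a level well above 0. Peg13, a paternally expressed non-coding RNA, went the other way, at 7.55 and 7.80 CPM in flox and 0.0943 and 8.93 CPM in KI, so that KI27 was the low library. In each of these genes the genotype comparison rests on 1 clone. In the endoderm lists KI27 exceeded KI48 in 9 of 18 called transcription factors, 12 of 19 uptake genes, 7 of 19 basement membrane genes and 3 of 12 secreted proteins, of which Apoa1, Apoa4, Ttr and Fgb had 0 reads in both clones.

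**Figure D5:**
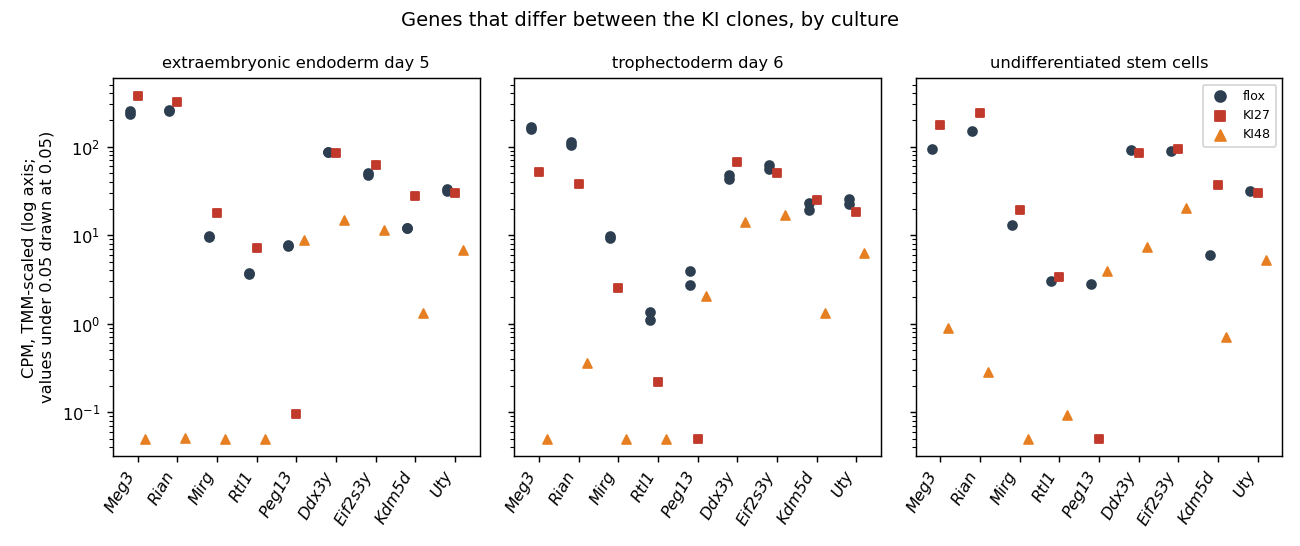
TMM-scaled CPM (log axis, values under 0.05 drawn at 0.05) of 9 genes that differ between the KI clones, in extraembryonic endoderm, trophectoderm and undifferentiated stem cells; circles are flox, squares KI27 and triangles KI48. In all 3 cultures KI48 is the lowest for Meg3, Rian, Mirg, Rtl1 and the 4 Y-linked genes, and KI27 for Peg13.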

How the data were processed

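RNA of the 4 extraembryonic endoderm, 4 trophectoderm and 3 stem cell cultures of the flox and KI cells was poly(A)-selected and sequenced, per the labels' protocols. The authors deposited 1 table per library that gives 29082 RefSeq transcripts a read count each, next to an RPKM value; RPKM (reads scaled by transcript length and library size) is the authors' own scaling, per the file headers. Bowtie2, STAR, SICER 1.1, bcl2fastq and the build mm9 are named in the submitters' processing notes, with no role given for each. The counter, its annotation and its use of strand are not given in the sources used here, so reads of overlapping genes, on either strand, cannot be told apart.

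Accessions were matched to symbols through a RefSeq table (28436 of 29082 matched), and each gene was represented by the transcript with most reads over all libraries. The deposited counts of the endoderm and trophectoderm libraries were fitted together with edgeR 4.0.16 (R 4.3.3, limma 3.58.1; filterByExpr with a minimum count of 10, TMM factors, robust quasi-likelihood fit), without a replicate block. P-values were adjusted over the 15532 genes tested (Benjamini-Hochberg), and 0.05 was the threshold. Each SE is the size of the fitted change over the root of its F statistic. An exact permutation test of 2 libraries against 2 cannot give a two-sided p under 0.333. Folds against 0 reads are lower bounds that allow 3 reads per library, and intervals cover counting error only. Ratios to a KI level of 1 to 20 reads have exact Poisson intervals.

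On simulated counts for 15189 genes the endoderm comparison recovered 76 of 100 genes changed 2-fold and 91 of 100 changed 4-fold, with 11 false calls. The simulation gave every group the same spread at a given level and changed far fewer genes than were called here. Recovery in the real data may therefore differ. The flox replicates differed less than the KI clones (chi-square per degree of freedom 2.76 and 10.8). KI27 and KI48 are taken as the same lines in each culture, apart from the transgene in trophectoderm. Their deviations from the group means correlated across cultures (0.183), unlike those of the flox replicates (0.0008). The gene lists, members and naming rules were chosen with earlier results of these data known. Named genes were the 10 strongest changes each way among genes of at least 5 CPM in the higher group, the 10 with most reads among those past 2-fold, list members with their role, and the 6 largest differences from trophectoderm each way. Rhox5, Apoc2, Kmt2a, Setd1b and H19 were not analysed here. Some genes that these rules name are not reported here, though counts over lists include them. Alternatives were DESeq2 1.42.0, RLE factors, no filter, sums over transcripts, leaving out the 100 most abundant genes, a fit of 4 libraries, a test against 1.5-fold and leaving out each library. Promoters matched for 72.3% to 76.4% of the gene sets, so motif shares of sets were not compared.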

Additional observations from a re-analysis of the deposited data

Results flagged for a closer look

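The effect of KI differed between extraembryonic endoderm and trophectoderm for 5486 genes by the interaction term. The largest differences with the endoderm effect above the trophectoderm effect, on the log2 scale and among genes past the expression minimum, included 6.03 for the platelet chemokine Ppbp, 5.97 for the homeobox gene Rhox4c, 5.22 for Bnipl, 5.05 for the stathmin Stmn4 and 4.64 for the gut antigen Gpa33. Ppbp was at 3.20 and 3.53 CPM in flox and 23.1 and 16.4 CPM in KI in endoderm, and in trophectoderm at 2.16 and 2.75 CPM in flox and 0.145 and 0.285 CPM in KI, so that the 2 cultures moved apart. Stmn4 was at 17.7 and 16.9 CPM in flox and 41.6 and 42.0 CPM in KI in endoderm, and at 0.718 and 0.892 CPM in flox and 0 and 0.107 CPM in KI in trophectoderm. Bnipl and Gpa33 likewise were called higher in KI endoderm and lower in KI trophectoderm. Rhox4c was called higher in both and had 0 reads in flox endoderm, so its fitted difference is no bound, and it belongs to a family of near-identical copies. Bnipl was not called in endoderm without flox replicate 1 (edgeR adjusted p = 0.075).

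On the other side stood -13.47 for Apob, -11.90 for Afp, -9.66 for Apoa1, -8.85 for Pga5 and -7.85 for Hkdc1, besides 1 transcript without a matched symbol. Apob and Hkdc1 were near 0 in all trophectoderm libraries (Apob 0.160 and 0.149 CPM in flox and 0.145 and 0.214 CPM in KI), and the trophectoderm effect was not called for either. Afp rose in KI trophectoderm from 0 reads in flox, at 0 and 0 CPM in flox and 0.400 and 0.249 CPM in KI, which makes its fitted difference no bound. Pga5 fell in both cultures. Apoa1 and Pga5 had 0 reads in KI endoderm, so their fitted differences are no bounds either and have no rank. Leaving out 1 library removed 3 of these calls. Pga5 was not called without KI48 trophectoderm (-4.05, edgeR adjusted p = 1), Hkdc1 without KI48 trophectoderm (-3.74, edgeR adjusted p = 0.931), and Apoa1 without KI27 trophectoderm (-7.53, edgeR adjusted p = 1), without flox trophectoderm replicate 2 (-8.66) or without any 1 of the 4 endoderm libraries (edgeR adjusted p from 0.054 without KI27 to 0.0858 without flox replicate 1). Apob was -12.49 without KI27 endoderm and -16.83 without KI48 endoderm. Among the higher ones, Stmn4 was 4.14 without KI27 trophectoderm and 8.48 without KI48 trophectoderm.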

How the results depend on the processing

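Testing against a 1.5-fold change in place of no change called 1431 genes against 5520, and 144 list members against 266, because the hypothesis itself is stricter. Leaving out 1 library gave 3641 to 4967 genes, 1349 to 1654 genes past 2-fold and 212 to 261 list members, and 4092 to 5532 genes for the difference from trophectoderm. DESeq2 called 4997 genes, of which 4919 were among those called by edgeR. With the line as a replicate block, 5950 genes were called for the difference between cultures, against 5486 without it, and of the 23 list counts it moved that of germline genes by over 1.5 times (6 to 11). KI27 and KI48 are taken as the same lines in both cultures, and the flox replicates share only a number. The share of genes that differ 2-fold between KI clones was 0.514% at 5 CPM against 1.4% at 1 CPM, and between flox replicates 0.0176% against 0.389%. Medians near 0 changed sign: naive pluripotency genes to -0.081 without flox replicate 2 (range -0.081 to 0.32 over the libraries left out), and Activin and Nodal genes to 0.0297 with sums over transcripts, 0.0347 in the fit of 4 libraries and 0.0422 without flox replicate 2 (range -0.15 to 0.0422). Neural (-0.22 to 0.35), mesenchyme (-0.0434 to 0.22) and retinoic acid genes (-0.13 to 0.0137; 0.0009 without the 100 most abundant genes) also changed sign over the libraries left out, and the cause was not tested. Over the alternatives, 1869 of 1935 values of named genes kept their side of the threshold, 1840 of them with the same sign. The other 29, of 17 genes not called in either fit, changed sign, among them Meg3, Rian, Mirg and Rtl1 without KI48 and Kdm5d and Peg13 without KI27. Calls were lost in 46 values and gained in 20, and 0 called values reversed. At these depths a level under 0.15 CPM cannot be told from 0.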
